A study of Mus musculus with 7 samples.

Results

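The TMut versus wild-type contrast in mouse neural stem cells at passage 1 was examined over all genes, in 5 of the 7 libraries of the study. The 2 TMut libraries come from 2 lines whose labelled genotype is Tet-TMut, and the 3 control libraries come from 3 lines labelled WT, short for wild type. The libraries were taken by their genotype label. Another genotype, labelled Tet-TFoCa (TFoCa; the design text writes Tet-FoCa), contributed 2 libraries to the estimate of the spread and is set beside TMut where that helps. All lines share the tissue label, the passage and an Omega EZNA total RNA extraction. The labels do not say which TET protein or which oxidation step a genotype alters, nor the age, sex or brain region of origin, and each line counts as 1 replicate.

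TET enzymes oxidise 5-methylcytosine, the methylated base of DNA, first to 5-hydroxymethylcytosine and then to 5-formylcytosine and 5-carboxylcytosine. Thymine DNA glycosylase, encoded by Tdg, removes the formyl and carboxyl forms so that an unmodified cytosine can be put back. Hydroxymethylcytosine is plentiful in neural tissue, and neural stem cells are dividing precursors that carry radial glial genes and can give rise to neurons, astrocytes and oligodendrocytes.

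Levels below are normalized counts, which are gene counts divided by the size factor of the library. WT values are given in the order of replicates 1, 2 and 3, TMut values in the order of replicates 1 and 2. Differences are in log2 units on the scale log2(normalized count + 1), each with its standard error, and come from 1 limma fit to the 7 libraries (n = 3 WT, 2 TMut and 2 TFoCa). Adjusted p values are Benjamini-Hochberg values from limma over 18134 genes, and a gene is said to rise or fall at an adjusted p under 0.05. Of all tested genes 18.4% rose and 20.4% fell in TMut, so the counts of members below are read against those 2 shares. Over all tested genes the median difference was 0.002.

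Reads in genes came to between 34610944 and 62545457 in the WT libraries and to 36351320 and 35632516 in the TMut libraries. Of 20 markers of radial glia and neural stem cells, 2 rose and 16 fell (median -1.80), and the same counts were found without either TMut library. Sox2 stood at 17594, 22162 and 19998 in WT and 6546 and 6298 in TMut, so the defining factor was lower but far above 0, while Nes, the gene for the filament protein nestin, stood at 21385, 14908 and 16147 and 15124 and 11419 and did not pass the test (-0.39 ± 0.19, adjusted p = 0.132). Only 5 of 20 microglia and macrophage markers and 3 of 12 erythroid and blood markers had enough reads to be tested, and Ptprc, Csf1r, Aif1 and Hbb-bs were not among them. The microglia and macrophage markers summed to between 1508 and 1799 in WT and to 2342 and 2659 in TMut, where 2 of the 5 rose, 1 without TMut replicate 1 and 0 without TMut replicate 2. The erythroid and blood markers summed to between 191 and 379 and to 432 and 336, with 0 called. The fibroblast markers summed to between 141335 and 154758 in WT and to 284649 and 199335 in TMut, where 5 of 13 rose and 3 fell, or 1 fell without TMut replicate 2. Of 17 endothelial and pericyte markers 5 rose and 5 fell (3 fell without TMut replicate 2), with sums of 10369 to 10585 in WT and 7768 and 8038 in TMut. The part of other cell types in the results below was not tested. In bulk RNA, a change in the share of cells of a type and a change of RNA per cell cannot be told apart.

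Libraries stood apart in 5 ways that bear on results below. The first is TMut replicate 2, in which genes of pluripotent cells were high. Pou5f1, the gene of the factor Oct4, stood at 2613, 5487 and 3351 in WT and at 3242 and 15569 in TMut, and a list of 20 such genes, drawn up after the data were seen, summed to between 18369 and 37847 in WT and to 19298 and 75013 in TMut. Of these 20 genes 1 rose and 1 fell in the full fit, and 8 rose without TMut replicate 1, Pou5f1 among them (adjusted p = 0.0061; 0.231 in the full fit). The same list summed to 1646 and 2040 in the TFoCa lines, where Pou5f1 stood at 166 and 166. In TFoCa 18 of the 20 genes fell against WT, and 20 were higher in TMut than in TFoCa. The part of this in the TMut minus TFoCa values below was not tested. The second is WT replicate 1, which is taken up with the amino acid response below. The third is chromosome 11, whose 952 genes with a WT mean of 200 or more had a median log2 ratio to the WT mean of 0.34 and 0.15 in TMut replicates 1 and 2, against a range of -0.10 to 0.07 over the medians of the other autosomes in these libraries. The fourth is the Y chromosome: Eif2s3y stood at 678, 409 and 421 in WT and 1982 and 1606 in TMut, and Kdm5d at 22, 20.3 and 18.4 and 279 and 98.4. Neither passed the test, while Eif2s3y was called without TFoCa replicate 1 or 2 (adjusted p = 0.00127 and 0.00148), as was Kdm5d (adjusted p = 0.00241 and 0.00333). The fifth is TFoCa replicate 2, whose medians were 0.45 on chromosome 1 and 0.42 on chromosome 11. It enters the spread and every TMut minus TFoCa value below. The part of these 5 in the differences below was not tested beyond the counts without a library or without chromosome 11 given beside them.

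**Figure D1:**
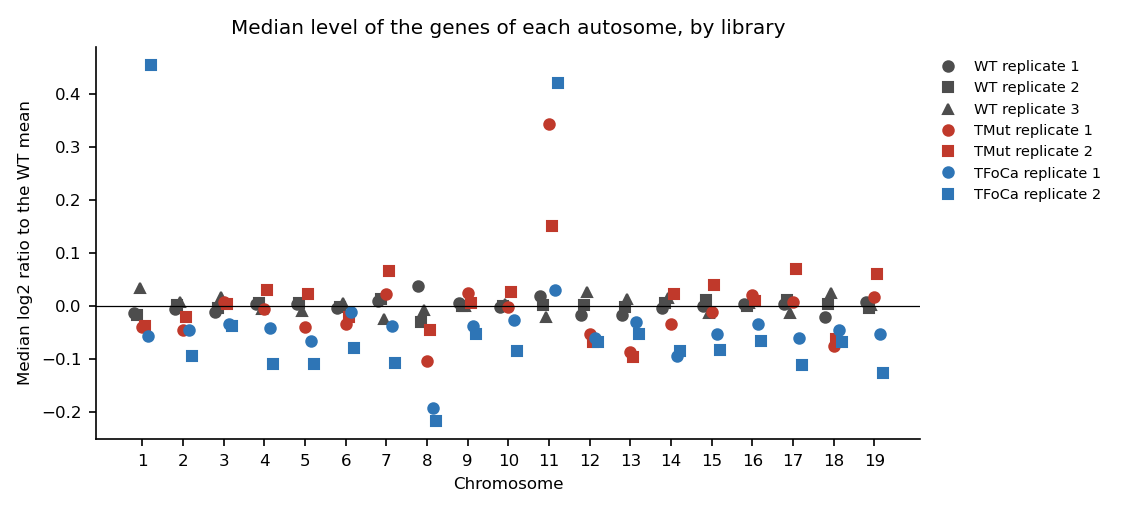
Median log2 ratio to the mean of the 3 WT libraries for the genes of each autosome with a WT mean of 200 or more (horizontal axis) in each library (points, coloured by genotype). Chromosome 11 lies at 0.34 in TMut replicate 1 and 0.15 in TMut replicate 2, while their other autosomes lie between -0.10 and 0.07.

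The TET and TDG genes check the labels only in part, since a mutant allele can leave RNA levels as they are. Tet1 stood at 1546, 1638 and 1547 in WT and at 1262 and 2779 in TMut, one TMut line below and the other above all WT lines, and did not pass the test (0.25 ± 0.28, adjusted p = 0.516), though it was called without TMut replicate 1 (adjusted p = 0.00394). Tet2 stood at 1526, 1564 and 1791 and 1493 and 1364 (-0.19 ± 0.26, adjusted p = 0.601) and Tet3 at 5484, 5999.5 and 6642 and 5766 and 4119 (-0.31 ± 0.16, adjusted p = 0.172), neither called, although Tet3 was called without TMut replicate 1 (adjusted p = 0.0382). Tdg stood at 4621, 4395 and 4718 in WT and at 2888 and 2886 in TMut. The groups did not overlap, and Tdg fell by 0.66 ± 0.088 (adjusted p = 0.00114). It was also lower in TMut than in TFoCa (TMut minus TFoCa -0.36 ± 0.10, adjusted p = 0.0231).

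The rises with the smallest adjusted p values were wide steps from WT, and 5 of these genes are described here. Spp1, which encodes the secreted phosphoprotein osteopontin, stood at 1429, 2380.2 and 2357 in WT and at 93244 and 86228 in TMut (5.48 ± 0.22, adjusted p = 4.3e-05). It was thus among the most abundant RNAs of the TMut lines and far below them in every WT line. Anxa1, the gene of the phospholipid-binding protein annexin A1, went from 873, 799 and 1033 to 20235 and 23238 (4.59 ± 0.17, adjusted p = 4.3e-05). Cavin1, needed for the membrane pits called caveolae, stood at 4133, 3732 and 3738 and 22262 and 20996 (2.48 ± 0.092), and Lgals1, which encodes the sugar-binding galectin 1, at 5965, 5773 and 7069 and 39352 and 35304 (2.58 ± 0.12). Timp1, an inhibitor of matrix metalloproteinases, stood at 359, 473 and 409.5 and 4204 and 3766 (3.27 ± 0.14). The spread within each genotype was small beside these gaps, and no TMut library overlapped a WT library for any of them. Choosing genes by the smallest adjusted p largely fixed both traits, and 33.4% of all tested genes were higher without overlap. All 5 kept their call without each library in turn.

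Falls with small adjusted p values or large steps also left no overlap between TMut and WT, which the choice of these genes largely fixed. Of all tested genes 33.6% were lower without overlap. Sema5b, a guidance protein of the semaphorin family, stood at 6803, 7332 and 7212 in WT and 1345 and 1085 in TMut (fell by 2.56 ± 0.11, adjusted p = 4.3e-05). Col15a1, a basement membrane collagen, stood at 11425, 12085 and 10625 and 2404 and 2408 (fell by 2.24 ± 0.093), against 10020.1 and 10635 in the 2 TFoCa lines. Asic4, of the acid-sensing ion channel family, went from 542, 735 and 946 to 10.4 and 14.4 (fell by 5.77 ± 0.28, adjusted p = 4.7e-05). Helt, a transcriptional repressor of the Hes family, went from 419.7, 365 and 421 to 2.3 and 4.8 and Gsx2, a homeodomain factor of the ventral forebrain, from 807, 1217 and 1334 to 25.3 and 4.8. Both TMut lines lay far below the lowest WT line for these 3 genes. Sall3, which encodes a zinc finger factor, fell by 3.54 ± 0.19 and Mast1, a kinase gene of neurons, by 3.03 ± 0.15.

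Most genes tested of actin, myosin and stress fibres rose. This did not hold for all genes of the cytoskeleton: of 36 kinesins 1 rose and 18 fell (median -0.44). Stress fibres are contractile bundles of actin, myosin and their crosslinkers, and in many cells their genes are read by serum response factor, which binds a sequence called the CArG box. Of 45 tested genes of actin, myosin and stress fibres, 38 rose and 2 fell in TMut, with a median difference of 1.46. Without a single library the number that rose lay between 32 and 39. RefSeq promoters were matched for 38 of the genes on this list, and 8 of them (21.1%) held a CArG box without mismatch on either strand in the 250 bases before the start, against 1.40% of all 27025 promoters in the table. Of these 8, 6 rose, no larger a share than over the whole list: Actg1, Cnn2, Myl9, Vcl, Lima1 and Srf. Actc1 and Acta1 were not called. The promoters of the 3 with the smallest adjusted p values are shown, with the CArG box in capitals, because they carry that shared element; the sequences are those of RefSeq in build GRCm38.p6, 5′ to 3′, plus strand, at chr10:79988350-79988599 for Cnn2, chr2:156775214-156775463 for Myl9 and chr14:20929148-20929397 for Vcl. The box begins 56, 161 and 227 bases before the start in Cnn2, Myl9 and Vcl. A match describes the sequence only and shows no binding.
Cnn2: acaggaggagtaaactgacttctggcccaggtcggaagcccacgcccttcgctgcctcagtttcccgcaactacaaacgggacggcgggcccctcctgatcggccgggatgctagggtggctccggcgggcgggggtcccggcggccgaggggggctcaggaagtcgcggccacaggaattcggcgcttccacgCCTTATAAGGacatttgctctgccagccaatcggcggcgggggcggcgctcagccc
Myl9: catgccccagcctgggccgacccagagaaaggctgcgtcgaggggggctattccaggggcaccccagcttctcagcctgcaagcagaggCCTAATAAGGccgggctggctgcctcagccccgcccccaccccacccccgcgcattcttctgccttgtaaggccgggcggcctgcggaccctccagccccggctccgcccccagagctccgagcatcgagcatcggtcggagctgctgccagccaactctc
Vcl: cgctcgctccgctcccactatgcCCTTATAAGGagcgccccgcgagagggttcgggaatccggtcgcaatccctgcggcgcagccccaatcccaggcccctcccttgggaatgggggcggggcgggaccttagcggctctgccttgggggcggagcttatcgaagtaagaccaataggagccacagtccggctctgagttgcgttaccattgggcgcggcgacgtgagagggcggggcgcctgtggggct

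Cnn2, which encodes the actin-binding protein calponin 2, stood at 2787, 3502 and 3488 in WT and 19434 and 21711 in TMut (2.66 ± 0.16, adjusted p = 7.6e-05). Myl9, a myosin light chain gene, stood at 315, 360.0 and 354 and 3025 and 2944 (3.12 ± 0.25), and Vcl, the focal adhesion protein vinculin, at 1647, 1491 and 1426 and 4837 and 5194 (1.72 ± 0.14). In each case both TMut lines lay well above the highest WT line. Srf, the gene of serum response factor itself, held the box too and rose by 0.46 ± 0.13 (adjusted p = 0.0259), a call lost without TMut replicate 2, WT replicate 2 or WT replicate 3 (adjusted p = 0.176, 0.0732 and 0.0889); without TMut replicate 2 its difference was 0.30. Actc1, the cardiac actin gene, also held the box and did not pass the test, at 1349, 655 and 1183 in WT and 1129 and 875 in TMut (-0.03 ± 0.41, adjusted p = 0.962). These 5 genes were named for the box in their promoters after their values were seen.

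Members of the list that the naming rule picks include Tagln2, Zyx, Tpm2, Actn1 and Tpm1. Tpm1, a tropomyosin gene, stood at 8138, 7146 and 7285 in WT and at 52169.8 and 54983 in TMut (2.83 ± 0.17, adjusted p = 7.1e-05). Zyx, the gene of the focal adhesion protein zyxin, went from 4695, 4789 and 4588 to 15652 and 17054 (1.80 ± 0.087), and Actn1, a crosslinker of actin filaments, from 4429, 4469 and 4474 to 13289 and 14568 (1.64 ± 0.091). Myh10, the most abundant member that did not pass the test, stood at 14487, 12732 and 14063 and 14552 and 11079 (-0.11 ± 0.17, adjusted p = 0.62). The cytoplasmic actins, among the most abundant RNAs of these cells, rose too: Actb by 0.99 ± 0.14 and Actg1 by 1.05 ± 0.14. With quantile normalization Actb was no longer called (0.37, adjusted p = 0.0568) and Actg1 lay at 0.55.

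The targets of YAP and TEAD, which carry signals of cell shape and contact to the nucleus, rose in part. Of 29 tested targets 17 rose and 2 fell (median 0.59), and between 13 and 20 rose without a single library. Ccn2 and Ccn1, which encode secreted matricellular proteins, stood at 1174, 1463 and 1099.8 and 3389, 2135 and 2154 in WT and at 6637 and 7556 and 15214 and 17757 in TMut (2.52 ± 0.21 and 2.72 ± 0.23). F3, tissue factor, the trigger of clotting, rose by 1.81 ± 0.13. Fhl2, a LIM domain cofactor that is not on this list, went from 359, 344 and 322 to 3430.1 and 2911 (3.21 ± 0.13, adjusted p = 4.3e-05). The 6 bases GGAATG, the core that TEAD proteins bind, were found in the 250-base promoter of 10 of 21 matched targets, against 12.6% of all promoters. Among intermediate filaments and lamins, 10 of 19 rose and 4 fell. Lmna, the nuclear lamin A and C gene, rose by 1.81 ± 0.10, and Krt8 and Krt18, the paired keratins of simple epithelia, by 3.30 ± 0.33 and 2.64 ± 0.28, whereas the neuronal filament gene Ina fell.

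The keratins belong to a change that the 2 TMut lines did not share equally. The epithelial and keratin markers summed to between 5751 and 9703 in WT and to 12710.4 and 30409.5 in TMut. Of 20 markers 8 rose and 1 fell. The number that rose was 13 without TMut replicate 1 or with DESeq2, 3 without TMut replicate 2, and 4 without WT replicate 1 or WT replicate 3. TMut replicate 2, the higher library, is also the one with high pluripotency genes, whose part in this was not tested. Krt7 stood at 37.7, 76.1 and 46 and 187 and 274 (2.13 ± 0.44, adjusted p = 0.00725) and lost its call without TMut replicate 2 (adjusted p = 0.0555).

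**Figure D2:**
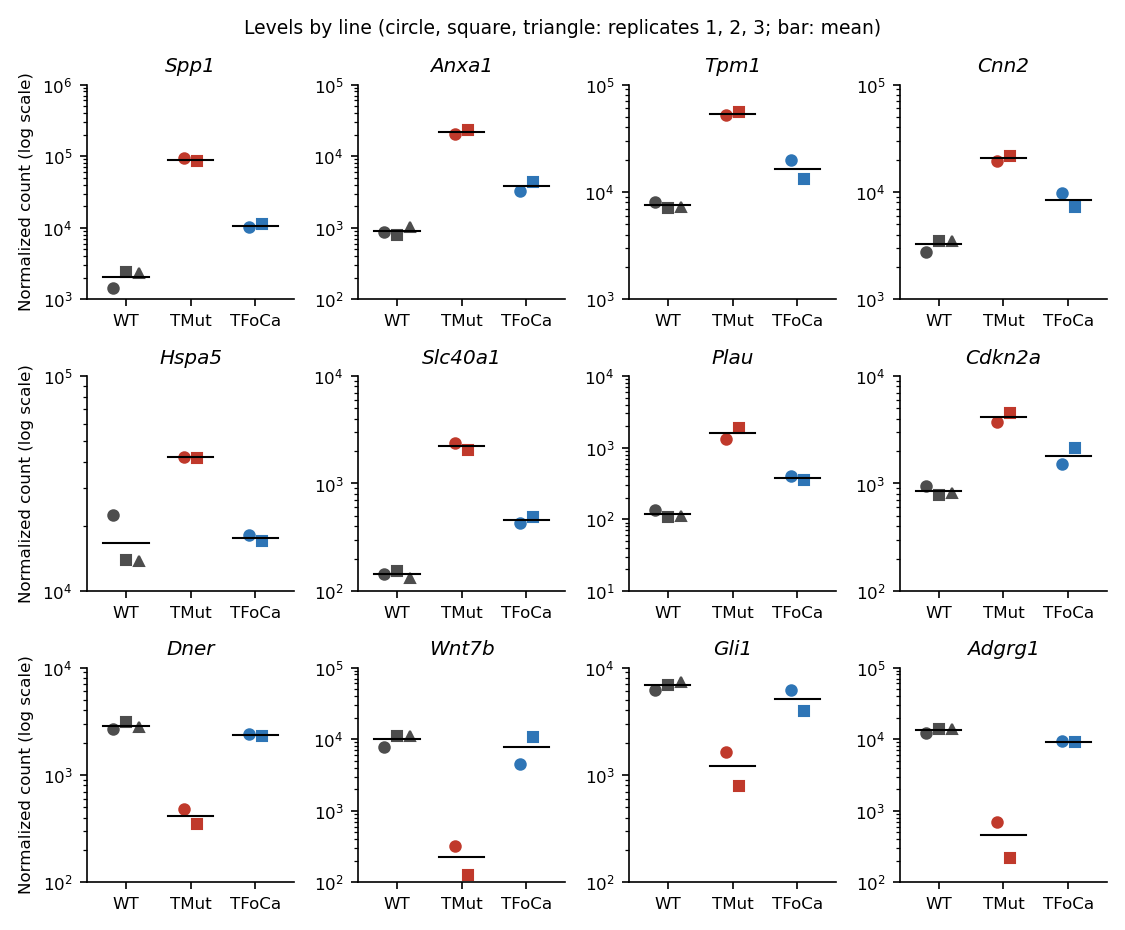
Normalized count (vertical axis, log scale) of 12 genes in each library, in columns for WT, TMut and TFoCa; each point is 1 line and each bar the mean of its genotype. In all 12 panels the TMut points and the WT points do not overlap. The choice of called genes largely fixed this, and of all tested genes 33.4% were higher and 33.6% lower without overlap. Spp1, for example, lies at 1429 to 2380 in WT and at 86228 and 93244 in TMut.

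Chaperones of the endoplasmic reticulum, which fold proteins on their way to the membrane or out of the cell, rose together in TMut. Cells raise them in the unfolded protein response, in part through the endoplasmic reticulum stress element, a promoter sequence read by ATF6 and NF-Y. Of 25 genes of the response, 15 rose and 0 fell (median 0.71), and between 13 and 15 rose without a single library. The element, spelled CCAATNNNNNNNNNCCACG and searched on both strands in the 250 bases before the start, was found in 6 of 22 matched promoters of the list (27.3%) and in 0.122% of all 27025. All 6 members of the list with it rose: Hspa5, Hsp90b1, Dnajc3, Creld2, Pdia6 and Syvn1. Of the 20 tested genes with the element, on the list or not, 9 were not called. Syvn1, a ubiquitin ligase of the reticulum (0.52 ± 0.13, adjusted p = 0.0149), lost its call without TMut replicate 2, WT replicate 2 or WT replicate 3 (adjusted p = 0.0802, 0.0558 and 0.0553). The letters at both ends of the element are fixed and those between them are free, and 3 of these promoters are shown with the element in capitals so that both parts can be compared. They are RefSeq sequences in build GRCm38.p6, 5′ to 3′, plus strand, at chr15:88819396-88819645, chr2:34771840-34772089 and chr14:118937682-118937931. In Creld2 the element lies on the opposite strand, so it reads CGTGG first and ATTGG last. It begins 126, 65 and 105 bases before the start in the order shown.
Creld2: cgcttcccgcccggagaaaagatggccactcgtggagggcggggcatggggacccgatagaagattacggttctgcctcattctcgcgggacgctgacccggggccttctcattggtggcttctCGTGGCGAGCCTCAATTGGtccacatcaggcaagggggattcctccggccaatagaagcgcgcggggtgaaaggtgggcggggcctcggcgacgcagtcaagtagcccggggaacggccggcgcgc
Hspa5: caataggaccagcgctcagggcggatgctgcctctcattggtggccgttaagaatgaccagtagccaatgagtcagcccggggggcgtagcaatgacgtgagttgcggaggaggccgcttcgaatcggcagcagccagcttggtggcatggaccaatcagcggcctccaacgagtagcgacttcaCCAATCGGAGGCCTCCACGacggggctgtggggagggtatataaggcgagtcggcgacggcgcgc
Dnajc3: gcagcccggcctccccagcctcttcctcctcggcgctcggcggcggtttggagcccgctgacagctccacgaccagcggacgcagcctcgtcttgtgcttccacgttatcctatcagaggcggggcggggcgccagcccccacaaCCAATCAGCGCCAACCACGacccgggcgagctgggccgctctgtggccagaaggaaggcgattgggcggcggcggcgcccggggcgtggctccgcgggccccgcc

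Hspa5, the gene of the chaperone BiP, stood at 22534, 13969 and 13765 in WT and at 42195 and 41590.5 in TMut (1.36 ± 0.21, adjusted p = 0.00201). WT replicate 1 was the highest WT line, and both TMut lines lay well above it. Creld2, a disulfide isomerase of the reticulum, stood at 1691, 1405 and 1336 and 2729 and 2991 (0.96 ± 0.14), and Dnajc3, a cochaperone, at 2022, 1892 and 1666 and 3542 and 3334 (0.89 ± 0.14). Manf, a secreted factor of the stressed reticulum, had the smallest adjusted p of the list, at 3872, 3085 and 3070.4 in WT, 6864 and 6651 in TMut and 2860.2 and 2778 in TFoCa. It rose by 1.02 ± 0.12 against WT (adjusted p = 0.000705) and was higher than in TFoCa by 1.26 ± 0.13 (adjusted p = 0.00159). In TFoCa 2 of the 25 genes rose against WT, and 15 of 25 were higher in TMut than in TFoCa, where 17.3% of all genes were.

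The 2 elements printed in capitals were picked after the counts were seen, from a search of 7 motifs in the promoters of 7 lists, so their shares are a description only. Over all genes both were rare. The CArG box was in 2.05% of the matched promoters of genes that rose, 1.09% of those that fell and 0.948% of those not called. The endoplasmic reticulum stress element was in 9 of 2583, 2 of 2664 and 9 of 7489. The antioxidant core TGACNNNGC was in 8 of 40 promoters of the glutathione and NRF2 list, against 10.1% of all, and the AP-1 site TGANTCA in 6 of the same 40 and in 5 of 18 of the complement and coagulation list, against 6.87%. The TEAD core was also in 13 of 38 promoters of the actin list. The heat shock element GAANNTTCNNGAA was in 1 of 16 promoters of the heat shock list, against 0.4% of all, and the interferon element GAAANNGAAA in 2 of 6 of the granzyme and schlafen list, against 3.04%. All were searched on both strands, and the motifs may overlap each other.

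Another arm of the same response, which runs through the factor ATF4, did not rise. ATF4 also serves the response to a shortage of amino acids, in which it raises amino acid transporters and the enzymes that make serine and asparagine. Ddit3, its target that encodes CHOP, stood at 704, 2796 and 2931 in WT, 691 and 839 in TMut and 3121 and 4083 in TFoCa. WT replicate 1 and both TMut lines were thus low and the 4 other lines high. The same split of lines into low and high was seen in Asns, asparagine synthetase, at 4847, 27830.3 and 27908 in WT, 6049 and 8860.3 in TMut and 20647 and 22315 in TFoCa, and in Slc7a5, a transporter of large neutral amino acids, at 8409, 49913 and 51182, 8184 and 12112 and 44615 and 38006. Of 20 genes of the amino acid response, a list drawn up after the data were seen, 0 rose and 2 fell in the full fit, and 0 rose and 19 fell without WT replicate 1. The median difference was -0.96 with that library and -1.68 without it. Asns moved from -1.09 ± 0.70 (adjusted p = 0.25) to -1.93 (adjusted p = 0.00121) and Slc7a5 from -1.48 ± 0.71 to -2.34. The result for this pathway therefore rests on WT replicate 1. Leaving out WT replicate 1 also took the number of members of the unfolded protein response list that fell from 0 to 5, and that of the serine, glycine and one-carbon list from 5 to 10 of 24.

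**Figure D3:**
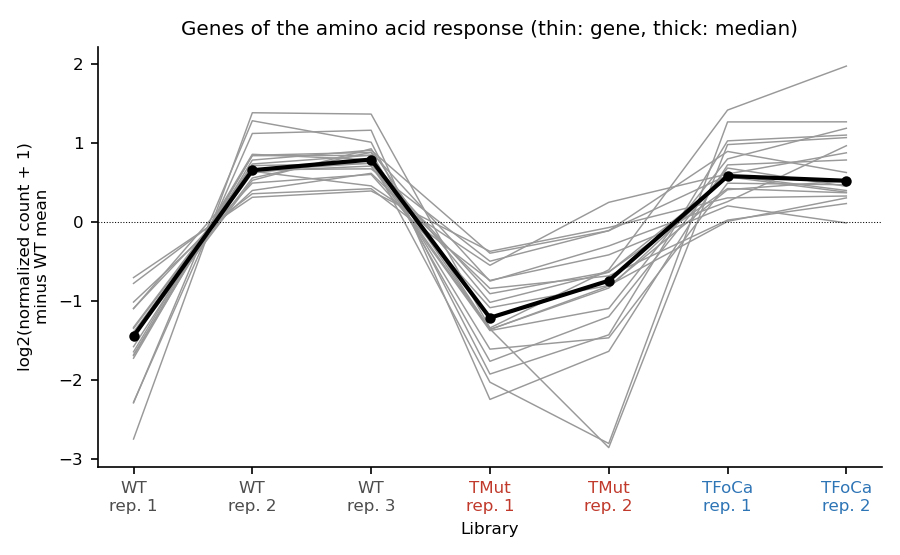
Log2(normalized count + 1) less the mean of the 3 WT lines (vertical axis) for 20 genes of the amino acid response in each library (horizontal axis); each thin line is 1 gene and the thick line is the median. The median lies at -1.45 in WT replicate 1, at 0.65 and 0.79 in the other WT lines, at -1.21 and -0.74 in the TMut lines and at 0.58 and 0.52 in the TFoCa lines.

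Transporters of amino acids and transmitters fell more widely. Of 27 tested, 1 rose and 13 fell (median -0.80). The number that fell was 8 without TMut replicate 2, WT replicate 2 or WT replicate 3. Slc1a2, a glutamate transporter of astrocytes, stood at 2379, 2165 and 2288 in WT and 304 and 125 in TMut (fell by 3.54 ± 0.35, adjusted p = 0.000351), and Slc6a11, a GABA transporter, went from 134, 266 and 201 to 32.3 and 21.6. The TFoCa lines lay at 2306 and 1489.8 for Slc1a2, 1 within the WT range and 1 below it, and TMut minus TFoCa was -3.24 ± 0.38 (adjusted p = 0.00187). The member that rose was Slc38a4, a transporter of neutral and cationic amino acids, at 2730.1, 2428 and 2208 in WT and 6857 and 7978 in TMut (1.60 ± 0.12).

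Genes of protein breakdown were higher by small and even steps. The proteasome degrades ubiquitin-tagged proteins, and of its 31 constitutive subunits 25 rose and 0 fell (median 0.42). Psmb4 stood at 9128, 8929.8 and 8544 in WT and 12902 and 12983 in TMut (0.55 ± 0.087, adjusted p = 0.00242), a narrow gap without overlap. The number that rose was 12 without TMut replicate 2, 16 without TMut replicate 1 and 15 without WT replicate 2 or WT replicate 3. It was 11 when differences were corrected for transcript length and GC content, which moved with the contrast as described below. In TFoCa 0 rose and 1 fell, and 27 of 31 were higher in TMut than in TFoCa, where 17.3% of all genes were. The induced subunits of the immunoproteasome and the peptide loading genes rose by more, with 13 of 17 higher and 1 lower (median 1.32). Psmb8 went from 29.8, 52 and 46 to 469.9 and 511 (3.53 ± 0.42) and Psmb10 from 300.5, 303 and 327 to 1189 and 1399 (2.05 ± 0.22). The classical class I heavy chains did not follow: H2-K1 was the 1 member that fell, from 5199, 4962 and 5235 to 3088 and 3483 (fell by 0.65 ± 0.12, adjusted p = 0.00534), and H2-D1 did not pass the test (-0.34 ± 0.18, adjusted p = 0.17). Reads of such similar genes may be shared between them.

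Lysosomal genes rose as well, 31 of 54 with 2 lower (median 0.48), and between 23 and 36 without a single library. Cd63, a membrane protein of late endosomes and lysosomes, stood at 6849.6, 7519 and 7328 in WT and 19984 and 21160.2 in TMut (1.51 ± 0.10, adjusted p = 0.000107). Gusb, the enzyme beta-glucuronidase, rose by 1.50 ± 0.11, Grn, which encodes progranulin, by 1.50 ± 0.14, and Tfeb, a regulator of lysosomal genes, by 1.43 ± 0.17. Psap, the most abundant member, stood at 25510.2, 26461 and 24121 and 28362 and 27320.4 and did not pass the test (0.14 ± 0.16, adjusted p = 0.529). Of 22 cytosolic chaperones and heat shock genes 9 rose, or 4 without TMut replicate 2 and 5 without WT replicate 3. Hspa1b, an inducible Hsp70, went from 207, 161 and 170.3 to 625 and 723 (1.91 ± 0.19) and Bag3, which directs clients of Hsp70 to autophagy, from 1922, 1644 and 1482 to 4764 and 4838 (1.52 ± 0.14).

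Ribosomal genes rose by small steps, close to the limit of the test. Of 74 cytosolic ribosomal protein genes, 32 rose and 0 fell (median 0.40), and in 68 both TMut lines lay above all WT lines, against 33.4% of all genes. The number that rose was 6 without TMut replicate 2, 19 without TMut replicate 1, 15, 8 and 10 without WT replicates 1, 2 and 3, and 60 and 61 without TFoCa replicates 1 and 2. It was 7 after correction for length and GC content and 8 with quantile normalization. Rps21 stood at 7649, 6951 and 6558 in WT and 12816 and 12232 in TMut (0.83 ± 0.14, adjusted p = 0.00338). Of 80 mitochondrial ribosomal protein genes 41 rose and 0 fell (median 0.41), or 24 after correction for length and GC content (median 0.25), 17 without TMut replicate 2, 27 without TMut replicate 1 and 18 without WT replicate 2 or WT replicate 3. Ribosome assembly genes gave 16 of 37, or 4 without TMut replicate 2 and 8 without any 1 WT line, and were led by Nop16, a nucleolar protein, at 1906, 1846 and 1655 and 3003 and 3266 (0.80 ± 0.11).

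Transcript length moved with the contrast. Genes were put in 5 equal classes by the length of their longest annotated transcript. In the shortest class, up to 1619 bases, the median difference was 0.23, and 20.2% of genes rose while 9.86% fell. In the longest class, from 4982 bases, the median was -0.19, with 14.4% higher and 33.6% lower. The 3 classes between them lay in order, at 0.12, 0.01 and -0.09. In TFoCa against WT the 5 medians went from -0.07 in the shortest to 0.03 in the longest. The median length was 1100 bases for the cytosolic ribosomal genes, 1819 for the proteasome, 3935 for potassium channel subunits and 4730 for protocadherins. Whether the length trend has its source in the cells or in the libraries was not tested. The share of reads from mitochondrially encoded genes, one sign of RNA quality, lay between 0.781% and 0.882% in WT and at 1.05% and 1.11% in TMut.

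**Figure D4:**
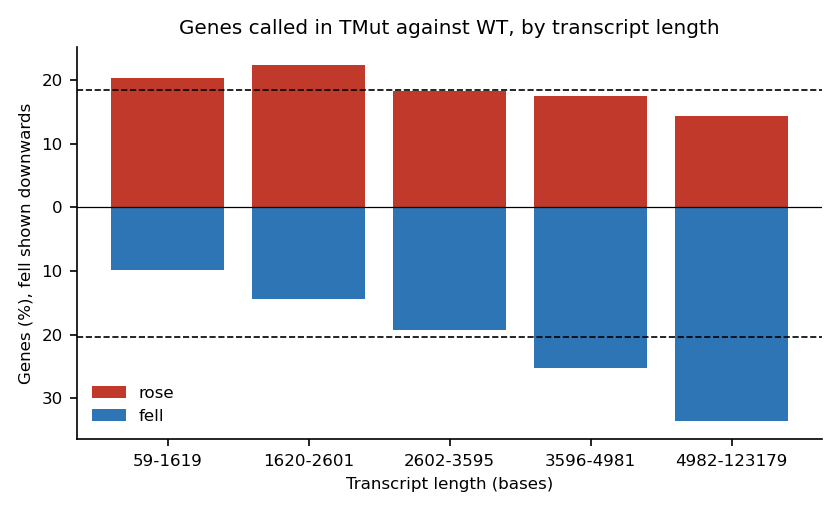
Percentage of genes that rose (upper bars) or fell (lower bars) in TMut against WT (vertical axis) in 5 equal classes of transcript length (horizontal axis), with the share over all tested genes as dashed lines. The share that fell goes from 9.86% in the shortest class to 33.6% in the longest.

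Antioxidant genes rose more often than the background. Glutathione is the main thiol of the cell, and NRF2, encoded by Nfe2l2, switches on many enzymes that make and use it. Of 47 such genes 26 rose and 5 fell (median 0.60), or 16 and 2 without TMut replicate 2. The number that fell was also 3 without TMut replicate 1, WT replicate 1 or WT replicate 2 and 2 without WT replicate 3. Nfe2l2 stood at 1555, 1621 and 1581 in WT and 3511 and 3946 in TMut (1.23 ± 0.10, adjusted p = 0.000217), and Sqstm1, which frees NRF2 from its inhibitor, at 7266, 6528 and 5652 and 14068 and 13224 (1.08 ± 0.13). Gpx1, a glutathione peroxidase, went from 5358, 5841 and 5629 to 11064 and 12775 (1.08 ± 0.10), and Gss, which completes glutathione synthesis, from 947, 934 and 722 to 1999.6 and 1914 (1.18 ± 0.15). Both were higher than in TFoCa, by 1.04 ± 0.11 (adjusted p = 0.00159) and 1.03 ± 0.17 (adjusted p = 0.00409). Gstm7, a glutathione transferase, went the other way, from 990.1, 1002 and 1069.8 to 283 and 161 (fell by 2.25 ± 0.24). Slc7a11, which imports cystine for glutathione and is also a target of ATF4, stood at 726, 2866 and 3781 in WT and 777 and 274 in TMut. WT replicate 1 lay below the higher TMut line, and the call of Slc7a11 (-2.11 ± 0.69, adjusted p = 0.0456) was lost without TMut replicate 2 (-1.35, adjusted p = 0.268), WT replicate 2 or 3 (adjusted p = 0.123 and 0.126) or TFoCa replicate 1 or 2 (adjusted p = 0.0562 and 0.0559).

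Iron, zinc and manganese transporters moved in both directions. Slc40a1 encodes ferroportin, which exports iron from cells, and stood at 145, 155 and 131 in WT and at 2399 and 2046 in TMut (3.94 ± 0.16, adjusted p = 4.3e-05). Both TMut lines lay more than 10 times above the highest WT line, and Slc40a1, which lies on chromosome 1, was higher than in TFoCa by 2.26 ± 0.18 (adjusted p = 0.00132). Fth1, the heavy chain of the iron store ferritin, rose by 0.95 ± 0.12. Slc39a12, a zinc importer, was at 0 in both TMut lines against 176, 184 and 84 in WT, which puts its difference at -6.39 or lower, taking 3 reads over the group as the floor. Slc30a10, a manganese exporter, went from 665, 619 and 577 to 143 and 91.2, and Mt3, the brain metallothionein, from 404, 344 and 344 to 101 and 64.8. Of the whole list of 22 metal genes 7 rose and 7 fell, and 3 rose without TMut replicate 2, WT replicate 1 or WT replicate 3 and 2 without WT replicate 2.

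In energy metabolism, genes that burn fatty acids rose in part. Of 36 genes of fatty acid oxidation and peroxisomes 15 rose and 2 fell (median 0.36), or 7 rose without TMut replicate 2 and 8 without WT replicate 2 or WT replicate 3. Cpt1a, which admits fatty acids to mitochondria, stood at 1111, 1366 and 1196 in WT and 2809 and 3142 in TMut (1.28 ± 0.15, adjusted p = 0.000612). Abcd2, a peroxisomal transporter, fell from 1127, 1124 and 1342 to 205 and 91.2, and Ppargc1a, a coactivator of mitochondrial genes, from 78.5, 136 and 89.7 to 20.7 and 7.2. Of 25 glycolytic genes 1 rose and 5 fell, and of 25 genes of cholesterol synthesis 2 rose and 0 fell, both at or below the background. Without TMut replicate 2 the glycolytic counts were 0 and 0, and without WT replicate 1 the glycolytic and cholesterol genes that rose numbered 6 and 8.

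Genes of extracellular proteolysis and its inhibitors rose in step. Plasminogen activator and its receptor set where the protease plasmin forms at the cell surface. Of 30 complement and coagulation genes 17 rose and 0 fell (median 1.26), and between 13 and 18 rose without a single library. Plau, the activator urokinase, stood at 134, 108 and 110.4 in WT and 1312 and 1880.1 in TMut (3.74 ± 0.22, adjusted p = 7.1e-05), and Plaur, its receptor, which was named after its values were seen, at 140.4, 119.8 and 130.0 and 600.1 and 1059 (2.61 ± 0.27). Both were also higher in TMut than in TFoCa, by 2.06 ± 0.24 and 1.09 ± 0.30 (adjusted p = 0.00182 and 0.0258). Of 22 serpins and cathepsin inhibitors 15 rose, and the 1 that fell was Serpini1, the neuronal serpin, from 584, 645 and 590.1 to 196 and 144. Thbs1, the adhesive glycoprotein thrombospondin 1, stood at 1963, 2028 and 2088 and 15182 and 16379.5 (2.96 ± 0.13). Of 16 matrix metalloproteinases 10 rose and 4 fell, and 6 and 5 rose without WT replicate 1 and WT replicate 3. These lists rose in part in TFoCa too, where 5.25% of all genes rose against WT. There 9 of 30 complement and coagulation genes, 7 of 22 serpins and cathepsin inhibitors and 6 of 16 metalloproteinases rose. In the same order, 12, 11 and 2 genes were higher in TMut than in TFoCa and 2, 2 and 5 were lower. Of all genes 17.3% were higher and 18.5% lower.

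Some genes of granule enzymes and of the schlafen family were at or near 0 in WT and had reads in TMut. Gzmd and Gzme encode granzymes, proteases best known from cytotoxic lymphocytes. Gzmd was at 0 in every WT line and at 53 and 31.2 in TMut, so its rise was at least 5.71. Slfn5, of the schlafen family of growth and antiviral genes, stood at 0, 2.54 and 0 and 65.7 and 119. Gzmm, another granzyme gene, stood at 76.9, 81.8 and 78.2 in WT and 51.8 and 42 in TMut and did not pass the test (-0.75 ± 0.29, adjusted p = 0.0753). Of 20 listed genes 7 reached the filter, some of them, Gzmd and Gzme included, through the TMut lines alone. The number that rose among the 7 is therefore not read as a result. The 4 schlafens among the 7 lie on chromosome 11, whose part in this was not tested. The lymphocyte gene Ptprc was not in the tested set.

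Genes of the TNF, NF-kB and interleukin pathways rose in numbers above the background. Of 47 tested 25 rose and 2 fell (median 0.85), with 20 to 26 that rose without a single library. Tnfrsf12a, the receptor of the cytokine TWEAK, stood at 344, 354 and 398 in WT and at 2687 and 3227 in TMut (3.01 ± 0.15, adjusted p = 5.1e-05), and Tnfrsf1a, the main TNF receptor, at 2530.1, 2631 and 2565 and 5657 and 6509.5 (1.24 ± 0.11). Il33, an alarm cytokine held in the nucleus, went from 120.0, 194 and 191 to 2567 and 1570.4 (3.60 ± 0.32) and stood at 1745 and 1072 in TFoCa, where it also rose. Nfkb2, a subunit of NF-kB, rose by 1.24 ± 0.12. Nfkbia, a quick target and inhibitor of NF-kB, stood at 1073, 1377 and 1008 and 1166 and 1444 and did not pass the test (0.18 ± 0.19, adjusted p = 0.482). Of 17 tested genes of chemokines and their receptors, a separate list, 5 rose and 5 fell (median 0.10). Among those that rose, Ccl2 and Ccl7, chemokines that draw monocytes, went from 98.8, 57 and 105 to 2518 and 1910.1 and from 42.4, 65.9 and 55.2 to 881 and 532. They rose by 4.69 ± 0.34 and 3.65 ± 0.31. Both lie on chromosome 11, whose part in this was not tested.

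Genes of growth factor ligands and their receptors rose more often than the background. The shares that fell in the lists below, 17.5% and 23.7%, lay near the 20.4% of all genes. Genes of the FGF, EGF and RAS pathways gave 16 that rose and 7 that fell of 40, and the other receptor kinase pathways 15 and 9 of 38, or 5 that fell without TMut replicate 2. The EGF receptor ligands Areg and Hbegf stood at 12.6, 22.8 and 18.4 and 118, 188 and 197 in WT and at 404 and 414 and 1201 and 1443 in TMut (4.48 ± 0.37 and 3.0 ± 0.25), and Egfr, their receptor, at 569.6, 574 and 657 and 2558 and 2019 (1.92 ± 0.16). Fgf1, an acidic fibroblast growth factor, went from 28.2, 29.2 and 11.5 to 554 and 659 (4.77 ± 0.43). Pdgfb and Ntf3, which feed platelet-derived and neurotrophin receptors, rose by 2.92 ± 0.21 and 2.61 ± 0.24. On the other side, Fgf15, an embryonic brain ligand, went from 11237, 10826 and 10059 to 1452 and 1022 (fell by 3.13 ± 0.20, adjusted p = 0.000101) and stood at 1711 and 1143 in TFoCa. The receptor gene Fgfr2 went from 2869, 2944 and 3386 to 706 and 565 (fell by 2.27 ± 0.18), with 3312 and 2332 in TFoCa (TMut minus TFoCa -2.14 ± 0.19, adjusted p = 0.00144). Areg, Hbegf, Egfr, Pdgfb and Ntf3 rose in TFoCa as well, with differences of 3.53 ± 0.37, 2.23 ± 0.25, 1.63 ± 0.16, 2.51 ± 0.21 and 2.32 ± 0.24 against the same WT lines, and none of the 5 differed between the mutant genotypes at an adjusted p under 0.05.

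The Notch pathway, which keeps neural precursors from differentiating through contact with their neighbours, was lower at the level of ligands and some targets. Of 28 genes 0 rose and 14 fell (median -0.79), and between 10 and 18 fell without a single library. After correction for length and GC content 3 rose and 13 fell. Dner, a Notch-binding membrane protein, stood at 2689, 3106 and 2792 in WT and 479 and 353 in TMut (fell by 2.79 ± 0.15, adjusted p = 5.5e-05). The ligands Dll1 and Dll3 went from 7996, 7228 and 8199.9 to 1204 and 407 and from 3794, 5453 and 5918 to 958 and 551. The receptor Notch1 went from 6058, 5656 and 6326 to 3837 and 3327 (fell by 0.75 ± 0.10), a call lost after correction for length and GC content (-0.30, adjusted p = 0.132). The target Heyl fell by 1.99 ± 0.22, while Hes1, another target, stood at 4929, 4843 and 4134 and 5676 and 4872 and did not pass the test (0.19 ± 0.17, adjusted p = 0.422). In TFoCa 1 of the 28 rose and 0 fell, and 17 of 28 were lower in TMut than in TFoCa, where 18.5% of all genes were.

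Hedgehog signalling works through the primary cilium, and its readout genes fell by large steps. Gli1, a factor that the pathway itself induces, stood at 6196, 6910.4 and 7319 in WT and 1622 and 786 in TMut (fell by 2.59 ± 0.30, adjusted p = 0.000685). Ptch1, a receptor that is also induced by it, went from 14278, 17285 and 17547 to 3368 and 1783, and Cdon, a coreceptor that is lowered when the pathway is active, from 821, 654 and 720.1 to 2016 and 2219 (1.54 ± 0.13). Shh, the ligand gene, was named after its values were seen and stood at 2889, 3361 and 3404 and 716 and 145 (fell by 3.31 ± 0.75, adjusted p = 0.0105), a call lost without TMut replicate 2 (-2.16, adjusted p = 0.0669). Of 42 Hedgehog and cilium genes 4 rose and 19 fell (median -0.37), and 9 fell without TMut replicate 2. Bbs1, which carries receptors to the cilium, went from 1615, 1583 and 1581 to 714 and 628 (fell by 1.25 ± 0.11). Motile cilium genes gave 0 that rose and 8 that fell of 23, or 5 without WT replicate 1, without WT replicate 2 or without chromosome 11.

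Of 56 Wnt genes 20 fell (35.7%), against 20.4% of all genes, or 15 without WT replicate 2. The 11 that rose (19.6%) lay near the 18.4% over all genes. The median difference was -0.45, or -0.09 without TMut replicate 2. The ligands Wnt7b and Wnt7a went from 7887, 10923 and 11202 to 327 and 127 and from 446, 559.7 and 801 to 32.3 and 15.6 (fell by 5.59 ± 0.46 and 4.64 ± 0.44). Rspo2, which strengthens Wnt signals, went from 5098, 6276 and 3613 to 246 and 154. Among the receptors Fzd9 fell by 3.03 ± 0.23 and Fzd4 rose by 2.11 ± 0.17, from 349.9, 354 and 400.3 to 1345 and 1886. Nkd1, a feedback inhibitor that Wnt signals induce, fell by 2.59 ± 0.26. TMut lines were thus below every WT line for both Wnt7 ligands, Rspo2, Fzd9 and Nkd1, and above every one for Fzd4.

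Inhibitors of the cell cycle changed in both directions. Cdkn2a, whose products hold back CDK4 and MDM2, stood at 951, 789 and 809.9 in WT and 3720.4 and 4547 in TMut (2.28 ± 0.17, adjusted p = 0.00016). Cdkn1a, the gene of p21, went from 9136, 8617 and 9006 to 21273 and 23644 (1.33 ± 0.093). Both were also higher than in TFoCa, by 1.20 ± 0.19 (adjusted p = 0.00394) and 0.58 ± 0.10 (adjusted p = 0.00532). Cdkn1b, the gene of p27, went the other way, from 5028, 6503 and 6529.6 to 2951 and 2288 (fell by 1.20 ± 0.16), as did the retinoblastoma gene Rb1, from 2369, 2296 and 2699.9 to 1091 and 839 (fell by 1.36 ± 0.15). Ccne1 and Ccnd3, cyclins that drive entry into S phase, rose by 1.46 ± 0.15 and 1.14 ± 0.09. Of the 17 genes 5 rose and 4 fell. Of 44 DNA repair genes 3 rose and 1 fell, far below the background shares.

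Channel subunits and protocadherins fell more often than the background. Of 80 potassium channel subunits 8 rose and 30 fell (median -0.78), and of 37 sodium and calcium channel subunits 3 and 23 (median -0.93). The potassium channel subunits that rose numbered 4 without WT replicate 1 and 5 without WT replicate 3. Kcnk2 and Kcnk10, which carry background potassium currents, went from 916, 1093 and 860.5 to 238 and 127 and from 775, 865 and 987 to 53 and 6. Mlc1, a membrane protein of astrocytes, went from 1354, 1318 and 1025 to 29.9 and 19.2. Adgrg1, an adhesion receptor of neural precursors also called GPR56, stood at 12264, 13992 and 13999 in WT and 707 and 221 in TMut (fell by 5.08 ± 0.40, adjusted p = 0.000171). It stood at 9329.5 and 9175 in TFoCa (TMut minus TFoCa -4.54 ± 0.44, adjusted p = 0.00146). Adgra2, an adhesion receptor that takes part in Wnt7 signalling, rose instead, from 3322, 3702 and 4027 to 11038 and 10706 (1.57 ± 0.14). Of 65 protocadherins 6 rose and 31 fell, or 13 fell without TMut replicate 2 and 15 without WT replicate 2 or WT replicate 3.

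Of 66 transcription factors of limb, mesoderm and face 22 rose (33.3%) and 14 fell (21.2%), the latter near the 20.4% of all genes. Six2, a homeodomain factor of kidney and face, went from 258, 240.2 and 219 to 3430.1 and 4272 (4.0 ± 0.18, adjusted p = 4.3e-05). Runx1, a factor of blood and skin stem cells, stood at 419.7, 477 and 481 in WT, 1606 and 1345 in TMut and 1412 and 1536 in TFoCa, and rose in both mutant genotypes. Tbx18, a T-box factor of mesenchyme, went the other way, from 896, 793 and 779 to 109 and 43.2, against 1217 and 1046 in TFoCa (TMut minus TFoCa -4.01 ± 0.38, adjusted p = 0.00144). Hmga2, a chromatin protein of early precursors, rose by 2.05 ± 0.15.

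Splicing factors as a list fell at about the background share of 20.4%. Of 42 splicing factors 3 rose and 9 fell, or 1 rose without TMut replicate 2, WT replicate 2 or WT replicate 3. With quantile normalization 1 rose and 16 fell. Among those that fell, Nova2, a splicing regulator of neurons, stood at 7238, 6843 and 7052 in WT and 1864 and 1263 in TMut (fell by 2.20 ± 0.17, adjusted p = 0.000161), and Ptbp2 at 7502, 8125 and 9499.8 and 3238 and 2368 (fell by 1.59 ± 0.16). Celf2 fell by 1.84 ± 0.19 and Qk, which also acts in glia, by 1.52 ± 0.15. Mbnl1, which promotes splice forms of differentiated cells, rose from 592, 593 and 760.4 to 1727 and 1614 (1.37 ± 0.15). Of 389 genes named as Zfp zinc fingers, 18 rose and 113 fell (median -0.27), or 9 and 68 without TMut replicate 2. The number that rose was 11, 11 and 10 without WT replicates 1, 2 and 3, and 75 fell without WT replicate 3.

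**Figure D5:**
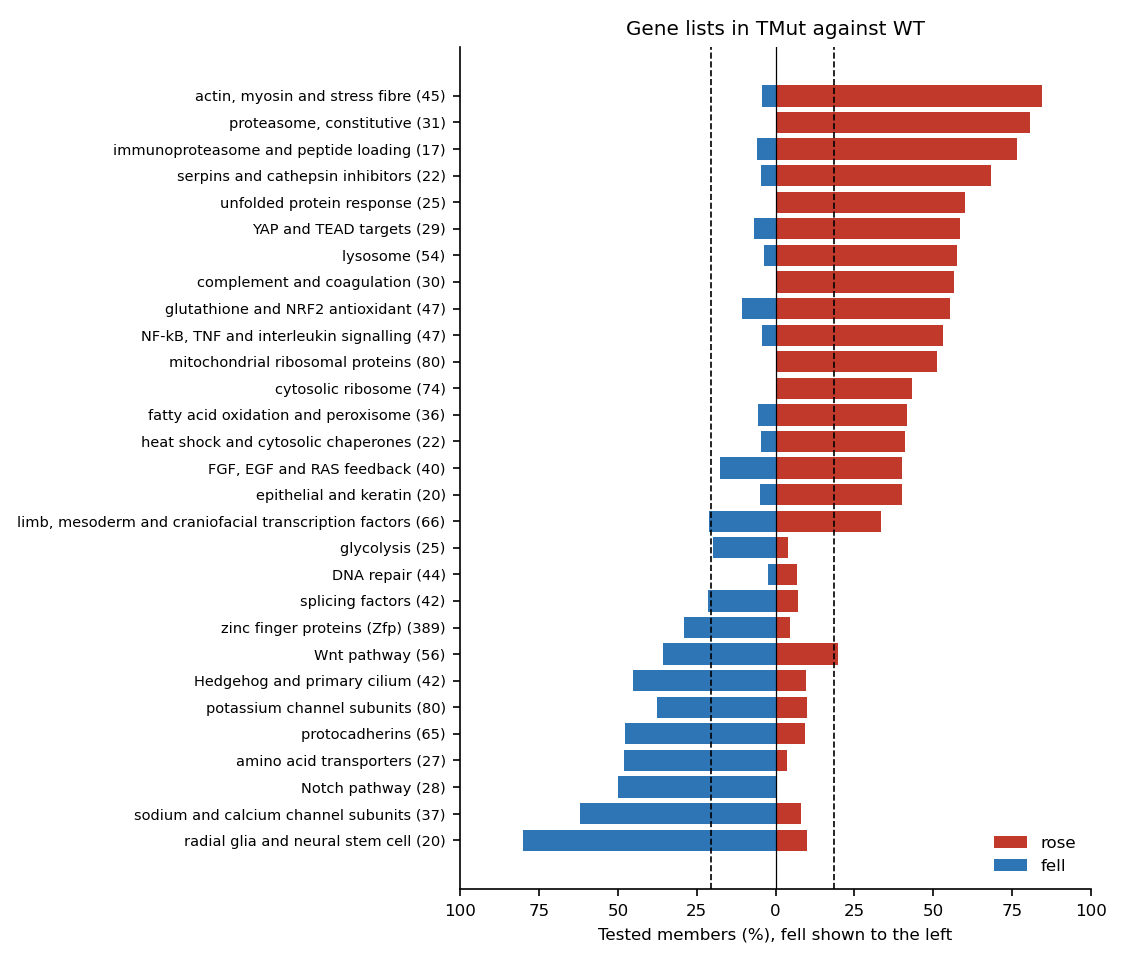
Percentage of the tested members of a choice of the gene lists that rose (right of 0) or fell (left of 0) in TMut against WT, with the number of members tested after the name. The dashed lines mark the shares over all tested genes, 18.4% and 20.4%; of the lists drawn, the actin list lies furthest right at 84.4% and the radial glia list furthest left at 80%.

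The comparison with TFoCa shares its WT lines, so values of both mutant genotypes are set side by side without a test of their likeness. Against WT, 5.25% of all genes rose and 3.52% fell in TFoCa. In TMut against TFoCa, 17.3% of all genes were higher and 18.5% lower, and the counts below are read against these shares. For the actin list the medians were 1.46 in TMut and 0.47 in TFoCa, and 32 of 45 genes were higher in TMut than in TFoCa. For the NF-kB list they were 0.85 and 0.66, and 11 of 47 genes were higher in TMut. For the YAP and TEAD list they were 0.59 and 0.56, and 7 of 29 were higher. For the proteasome, the cytosolic ribosome and the antioxidant list the TFoCa medians were -0.23, -0.022 and -0.015, and 27 of 31, 32 of 74 and 23 of 47 genes were higher in TMut. For the Notch list, the sodium and calcium channels and the potassium channel subunits the TFoCa medians were 0.075, 0.22 and 0.074, and 17 of 28, 24 of 37 and 27 of 80 genes were lower in TMut.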

How the data were processed

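RNA was measured by RNA sequencing in 7 libraries of mouse neural stem cells at passage 1. The deposited table holds a signal, normalized counts, which the authors made on build mm39 with DESeq2, featureCounts, SAMtools, STAR 2.7.3a and Trim Galore 0.6.5, per the submitters' processing notes; settings and annotation are not given in the sources used here. Its values are whole reads divided by a size factor, within 0.001 read. Between 70.3% and 79.3% of counts from 1 to 20 were even, as if both mates of a pair had been counted, so count models may overstate precision.

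All but the lowest genes (18134 of 18145, those reaching 10 normalized counts in 2 libraries) were fitted as log2(value + 1) in R 4.3.3 by limma 3.58.1, its trend option on, with genotype as the term and 4 residual degrees of freedom. The p values measure the spread between lines. A group at 0 is set to a floor of 3 reads over the group, which covers counting error only. Simulated data for TMut against WT held 18134 genes, of which 107 changed by 1 log2 unit and 93 by 2, none at a low WT level. The fit recovered 54.2% of the changes of 1 log2 unit and 90.3% of those of 2, with 8 false calls. Replicate numbers were not taken as pairs in the main fit. Deviations of same-numbered libraries correlated by 0.0192 to 0.185, and those of other libraries by -0.185 to 0.108. In a group of 2 libraries the deviations mirror each other, so these values cannot settle whether the numbers pair the lines.

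Members and gene lists were chosen with earlier results of these data known. Named genes are Tet1, Tet2, Tet3, Tdg and sex-linked genes, the largest changes without overlap, the smallest adjusted p values, the most abundant changed genes, and per list up to 6 called members with the smallest adjusted p and 2 others of highest level; the text takes some of these, some others are not reported here, and genes named otherwise are Actc1, Asns, Cnn2, Ddit3, H2-K1, Hsp90b1, Lima1, Myl9, Pdia6, Plaur, Shh, Srf, Syvn1 and Vcl, chosen after their values were seen. Lengths, GC content and chromosomes come from GENCODE M21 and promoters from RefSeq (GRCm38.p6, 12736 of the tested genes matched). edgeR 4.0.16 and DESeq2 1.42.0 on the recovered reads, other pseudocounts, filters and normalizations, a fit to 2 genotypes, a replicate block and leaving out each library were the alternatives; the corrections for length with GC content and for chromosome 11 were added after the data were seen.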

Additional observations from a re-analysis of the deposited data

How the results depend on the processing

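The count of genes that rose, 3344, moved by more than 1.5 times when 1 library was left out, over a range of 1934 to 3975, as did the count that fell, 3699, over 2395 to 4152. The lowest of each came without TMut replicate 2, and without WT replicate 3 the number that rose was 2229. With the replicate number as a block 2146 rose and 2474 fell, in a fit with fewer degrees of freedom. Whether lines of the same number share a batch is not known. Without the block the counts are those above. Every other alternative kept both counts within 1.5 times: 3203 to 3972 rose and 3314 to 4129 fell with other pseudocounts, filters, normalizations and tests, 3306 and 3508 after correction for length and GC content, and 3021 and 3575 without chromosome 11, by construction on fewer genes. TMM factors and quantile normalization shifted the median of all genes by 0.035 and 0.058. Of 140 called genes named, 5 did not keep their call in every fit without 1 library, each given beside its result, 5 lost it in another setting (the cause was not tested) and 0 changed direction. The named genes were mostly picked for small adjusted p values, so these counts do not stand for all called genes. Among genes the rule picked that are not reported here, Rpsa and Rps2 lost their call without WT replicate 1. In simulated data a gene with 1 log2 unit of change had about even odds of a call. Far fewer genes changed there than were called here, so those odds need not hold for these data. A missed call at that size is not evidence of no change. Some genes of the granzyme and schlafen list, Gzmd and Gzme included, miss the filter when either TMut library is left out.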

Other observations

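Genes of the retinoic acid system, which patterns the embryo and steers precursors, rose in part. Of 20 tested genes 6 rose and 1 fell (median 0.52), with the number that fell at 3 without TMut replicate 1 or either TFoCa library and at 0 without TMut replicate 2, WT replicate 2 or WT replicate 3. Cyp26a1, which breaks retinoic acid down, went from 56.5, 69.7 and 108 in WT to 559 and 1012 in TMut (3.30 ± 0.45, adjusted p = 0.00127 from limma) and the receptor gene Rarg from 876, 868 and 669.5 to 2324 and 4866 (2.07 ± 0.29). Both TMut lines lay above every WT line for both genes. Of 42 nuclear receptor and clock genes 9 rose and 13 fell, or 8 fell without WT replicate 2. Nr3c1, the glucocorticoid receptor gene, rose from 736, 604 and 642 to 1587 and 1792, and the clock gene Per2 fell from 426, 724 and 751 to 149.7 and 180.1, with 1102 and 735 in TFoCa.

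The endothelin pair fell in TMut. Ednrb, a receptor of endothelins, stood at 2281, 3235 and 3108 in WT and 327 and 84 in TMut (fell by 4.09 ± 0.50, adjusted p = 0.00083 from limma), and Edn3, its ligand, at 162, 183 and 183 and 18.4 and 16.8 (fell by 3.25 ± 0.29). The TFoCa lines lay at 2629 and 4092 and at 153 and 101, and TMut was lower than TFoCa for both (adjusted p = 0.00227 and 0.00186). Of 51 genes of heparan and chondroitin sulfate 12 rose, or 7 without TMut replicate 2, and 15 fell. Has2, which makes hyaluronan, went from 249, 315 and 323 to 1811 and 1934 (2.67 ± 0.19), whereas the brain proteoglycan genes Ncan and Cspg5 fell by 3.87 ± 0.43 and 2.61 ± 0.24. Of 48 imprinted genes 12 rose, or 6 without WT replicate 2 or WT replicate 3, and 12 fell. Igf2r, which clears IGF2 and is read mainly from the maternal copy, stood at 8770.1, 9251 and 10582 and 31071 and 34483 (1.78 ± 0.12). Airn, a noncoding RNA that overlaps Igf2r on the other strand, rose by 1.61 ± 0.20; without stated strand counting, reads of the pair may be shared. Nnat, which encodes neuronatin, fell by 3.26 ± 0.57.

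The TMut lines differed from each other more than the WT lines did. Among genes at a normalized count of 50 or more in either library of a pair, 1174 of 14589 (8.05%) differed by 1 log2 unit or more between the TMut lines, against 385, 431 and 210 for the 3 WT pairs and 1405 for the TFoCa pair. Among called genes with a mean of 50 or more in WT or TMut, those that fell had TMut replicate 2 as the lower of the lines in 76.1% of cases and those that rose in 38.1%.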
